A study of Mus musculus with 2 samples.

Results

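The genes described here encode Wnt ligands, their Frizzled receptors and 3 families of secreted modulators, the secreted Frizzled-related proteins (Sfrp), the Dickkopf proteins (Dkk) and the R-spondins (Rspo). They were taken by a rule on gene names, which uses no measured value, from the scanner files of 2 mouse arrays, and comprised 41 genes of 37008 gene names and 57 probes of 56605 non-control probes. There were 19 Wnt, 10 Fzd, 4 Sfrp, 4 Dkk and 4 Rspo genes, and 14 of the 41 had more than 1 probe. The study set RNA of lymph node cells without surface CD45, sorted as stromal cells, from tumor-draining nodes against that from nodes of normal mice. The normal sample came from mice without a tumor. The tumor-draining sample was taken 2 weeks after 4T1 mammary carcinoma cells had been placed under the skin at the mammary gland. Both samples are labelled female, and the mice are labelled C57BL/6, while 4T1 is known as a line of BALB/c origin. Neither the age of the mice nor the number of mice behind each sample is given in the sources used here. The arrays are called the normal and the draining array below. Each group is 1 array, so no test was possible, no p-value is given, and a gene is called higher or lower by size alone, at 2-fold or more. Signals are given as read by the scanner software, and folds and log2 differences after each array was scaled to its own 75th percentile.

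Wnt proteins are secreted, lipid-modified ligands that bind Frizzled receptors at the cell surface. With the co-receptors Lrp5 or Lrp6 they stabilize beta-catenin, which acts in the nucleus with factors of the Tcf and Lef family, and other Wnt proteins signal through Ror and Ryk receptors and the planar cell polarity proteins. Sfrp proteins bind Wnt ligands and Dkk1, Dkk2 and Dkk4 bind the Lrp co-receptors, while R-spondins act through Lgr receptors to keep the ligases Rnf43 and Znrf3 from removing Frizzled from the membrane. Fibroblasts and endothelial cells are common sources of Wnt ligands and secreted modulators, and T cells carry the transcription factors Tcf7 and Lef1.

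The oligonucleotides on the array were 60 bases long. The first 30 bases are given for those probes on which the results turn most, which are the 4 genes with the greatest decrease, the 3 with the greatest increase among genes above background on both arrays, and Fzd5, which like Wnt7b had probes of opposite sign. All are written 5′ to 3′ in lower case.
Rspo3, brighter probe: ggatactactttctaacaaggtgtatctag
Rspo3, dimmer probe: cacatgggccacttggcttaaatggttttc
Sfrp4: cacagttgtctgtgtgcatactgtgtaaga
Dkk2: tcagagtgatgatgtcatcagaagtttata
Fzd10: ttgactctctgaattgttaaacaaatgatt
Wnt4: tatgaggctccttggcattgtgacatcccc
Wnt10a: tttcacttaacagatatttatttttgcgct
Wnt7b: tgggctgtgttcctgcctcctctggagggg
Fzd5, brighter probe: aatttcagtggcttccacaagaccttgtac
Fzd5, dimmer probe: acggggacccagtggctggcatctgctatg
On the mm9 build, which the scanner files use, the brighter Rspo3 probe lies at chr10:29172930-29172989 on the minus strand and the dimmer one at chr10:29172236-29172295. The Sfrp4 probe lies at chr13:19724488-19724547, the Dkk2 probe at chr3:131842357-131842416, the Fzd10 probe at chr5:129109798-129109857 and the Wnt4 probe at chr4:136855342-136855401, all on the plus strand. The brighter of the 2 Wnt7b probes, the one shown, lies on the minus strand at chr15:85365877-85365935. The Fzd5 probes are on the minus strand of chromosome 1, the brighter at chr1:64779479-64779538 and the dimmer at chr1:64781972-64782030, and the Wnt10a probe is on the plus strand at chr1:74850633-74850692. Exon, intron or UTR was not assigned here.

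Signal well above background was found for 64.0% of all gene names in the normal sample and for 62.5% in the draining one. The 75th percentile of the signal was 373.6 and 357.9. With 1 array a group, precision is limited. The scanner software's error of the signal gave an error of the log2 difference of 0.20 to 0.26 for members above background on both arrays. It does not cover differences between mice or sorts. The 57 member probes were each printed once, and none was saturated or marked as an outlier. Over probes printed 10 times, the median SD of the log2 difference between spots was 0.049 at mean signals of 1000 or more (280 probes) and 0.15 below 100 (7 probes). Cells sorted as CD45-negative still gave leukocyte signal on both arrays. Ptprc, which encodes CD45, had signals of 3702 and 17432, and it and the other 7 of 8 pan-leukocyte genes passed 2-fold upward in the draining sample. In the same comparison 12 of 13 fibroblastic reticular cell markers and 15 of 15 markers of blood endothelium passed 2-fold downward. These counts take the brightest probe of each gene. As means over all probes Col1a1 (-0.87, with probes from -2.06 to 0.86) and Kdr (-0.88) were within 2-fold. Col3a1, within 2-fold by its brightest probe, passed 2-fold downward as such a mean (-1.76). Fewer cells of a type and less RNA per cell cannot be told apart in these samples.

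Most of the measured members were lower in tumor-draining nodes. Of the 41, 31 were above background on each array and 29 on both. Of these 29, 20 (69%) were lower by 2-fold or more and 0 were higher, where 15.9% of all 22152 genes above background on both arrays were lower and 11.1% higher. The median log2 difference, tumor-draining minus normal, was -1.64 for the 29 genes and 0.12 for all genes. At the low end, 10 members were lower by 4-fold or more and 7 by 8-fold or more, against 6.60% and 1.07% of all genes. The difference was below 0 for 24 of the 29, and for 43.6% of all genes. The families differed in how far they went, with medians of -0.60 for Wnt (11 genes measured), -1.56 for Fzd (10), -2.28 for Sfrp (4), -2.77 for Dkk (2) and -3.55 for Rspo (2). When scaled to spike-in RNA every difference rose by 0.82, the Wnt median turned to 0.22 and the medians of the other families stayed below 0.

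**Figure D1:**
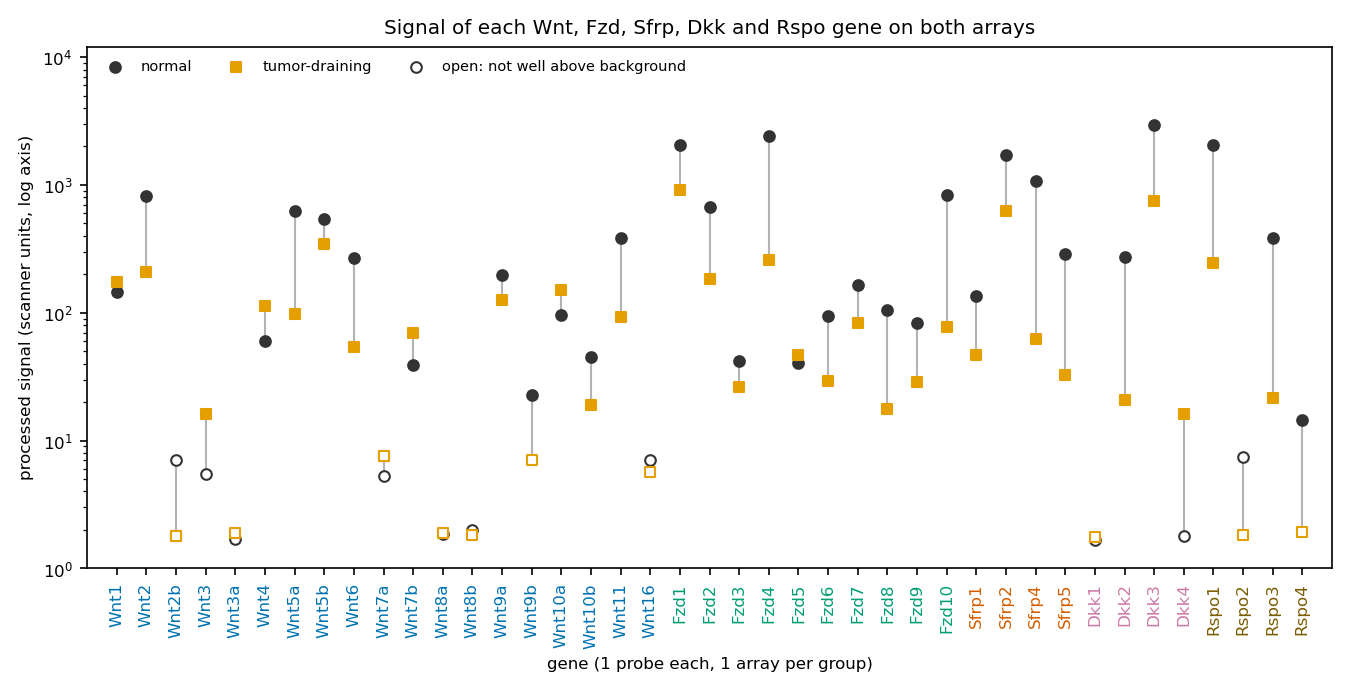
Processed signal (log axis) of the probe that stands for each of the 41 genes on the normal (circle) and tumor-draining (square) array, with open symbols where the probe was not well above background. Squares lie below circles for most Fzd, Sfrp, Dkk and Rspo genes, for example 384 to 21.7 for Rspo3, while Wnt4, Wnt7b and Wnt10a have the square on top.

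Among the ligands, 5 of the 11 measured were lower and 6 were within 2-fold. Wnt5a, a ligand of the polarity and Ror2 branch, had signals of 624 (normal) and 97.4 (draining), and was 6.14-fold lower. Wnt6 went from 269 to 53.7 and was 4.80-fold lower. Wnt11, another ligand of the polarity branch, had signals of 384 and 92.1, which is 4.00-fold lower. The software error of each of these log2 differences was 0.21.

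Wnt2, a ligand of the beta-catenin branch known from lung and vascular tissue, had signals of 819.5 and 209 and was 3.76-fold lower. Wnt10b was dimmer, at 45.1 and 18.9, and was 2.29-fold lower, although normexp background correction put its log2 difference at -0.33. Wnt5b (545 and 345) and Wnt9a (198 and 125) were both 1.52-fold lower, which is within the 2-fold limit. The closely related Wnt5a and Wnt5b thus differed in size, with log2 differences of -2.62 and -0.60.

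The remaining measured ligands had higher values in the draining sample, each under 2-fold. Wnt4, which acts in kidney and gonad development, had signals of 60.1 and 114, a log2 difference of 0.98, and passed 2-fold after quantile normalization and in the authors' deposited table. Wnt7b, an epithelial ligand, had signals of 38.9 and 69.2 (0.89), and Wnt10a, a ligand of skin and tooth, had 96.3 and 149.6 (0.70). Wnt1 had 146 and 174, a log2 difference of 0.32. Scaled to the spike-ins, these 4 ligands passed 2-fold upward, as did 46.8% of all genes above background on both arrays, while Wnt5b and Wnt9a were both at 0.22.

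Of the 8 other ligands, Wnt3 was above background in the draining sample alone, with 16.1 against 5.44, which is at least 2.17-fold higher. Wnt9b was so in the normal sample alone, with 22.7 against 7.02, which is at least 2.63-fold lower. Such bounds set the bright signal against the lowest signal of any probe above background on the dim array, 7.72 (normal) and 8.27 (draining). The bounds passed 2-fold for 35.3% of the 1528 genes measured in the normal sample alone and for 38% of the 976 genes measured in the draining sample alone. They hold only for the software's background subtraction. With normexp the log2 differences were 0.28 for Wnt3 and -0.17 for Wnt9b, both within 2-fold. Wnt2b, Wnt3a, Wnt7a, Wnt8a, Wnt8b and Wnt16 were not well above background on either array. For those 6 ligands the arrays do not give a direction.

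**Figure D2:**
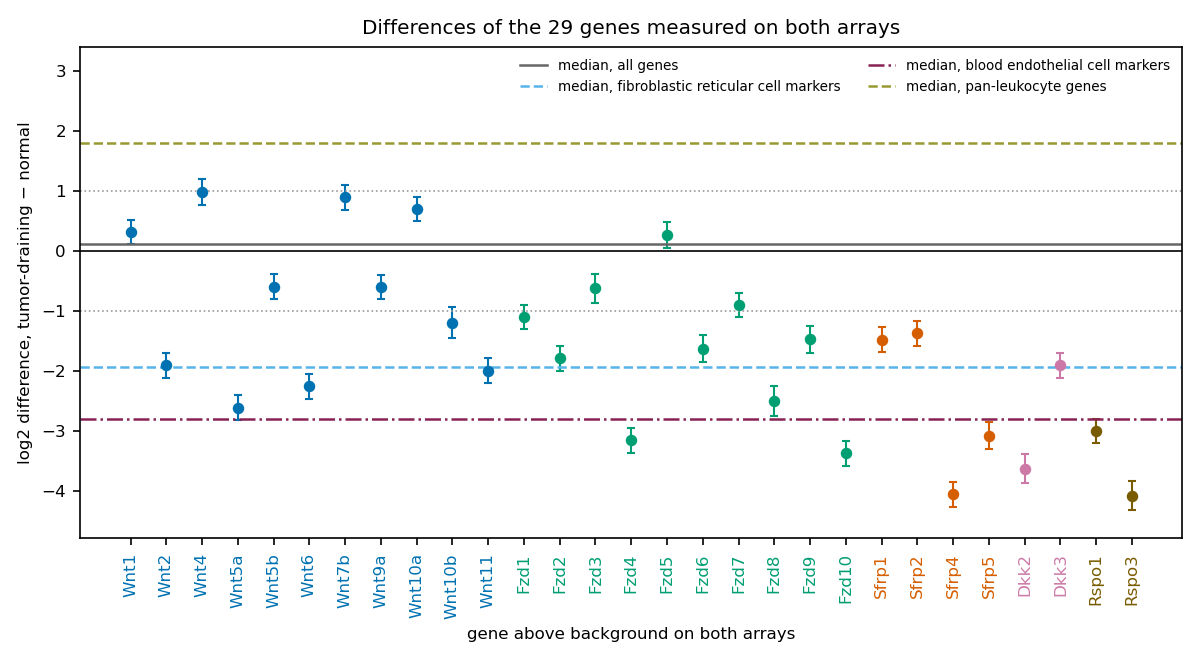
Log2 difference, tumor-draining minus normal, of the 29 genes above background on both arrays, with bars for the scanner software's error, dotted lines at 2-fold and lines at the medians of all genes and of 3 marker lists. Rspo3 (-4.09) and Sfrp4 (-4.06) are lowest and Wnt4 (0.98) is highest.

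All 10 Frizzled receptor genes were above background on both arrays. Of them 7 were lower and 3 within 2-fold. Fzd10 had the greatest decrease, from 839 to 77.3, which is 10.4-fold lower. Fzd4, the receptor through which norrin acts on blood vessels, went from 2416 to 258 and was 8.96-fold lower. Its partner Tspan12, which encodes a tetraspanin of the norrin receptor, had signals of 638 and 75.8 and a log2 difference of -3.01, while norrin itself (Ndp) was measured in the normal sample alone (14.7 against 3.67).

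Fzd8 was lower as well, with 106 and 17.8 and a decrease of 5.70-fold, which shrank to a log2 difference of -1.09 with normexp. Its close relative Fzd5 had 40.4 and 46.5, a log2 difference of 0.26, or -0.17 as the mean of its probes. The related receptors Fzd1, Fzd2 and Fzd7 were lower, Fzd2 by the most. Fzd1 (-1.11) and Fzd7 (-0.91) lay close together, with software errors of 0.20 and 0.21. Fzd2 went from 671 to 185 (3.47-fold lower), Fzd1 from 2052 to 912 (2.16-fold lower) and Fzd7 from 164 to 83.7, which is 1.87-fold lower. Fzd7 had a log2 difference of -1.08 after loess normalization.

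Fzd6 had signals of 94.3 and 29.1 and was 3.11-fold lower, and its relative Fzd3 had 42.1 and 26.1, or 1.55-fold lower. Fzd9 went from 83.3 to 28.7, which is 2.78-fold lower, against 10.4-fold for its relative Fzd10. With normexp, Fzd6 (-0.71) and Fzd9 (-0.67) were within 2-fold. Receptors of one subgroup thus gave folds of different size, apart from Fzd1 and Fzd7, which were close. The only receptor to pass 2-fold upward under any scaling was Fzd5, at 1.09 when scaled to the spike-ins, where 46.8% of all genes passed it.

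All 4 Sfrp genes, which encode secreted proteins with a Frizzled-like domain that bind Wnt ligands, were lower. Sfrp4 had signals of 1079.9 and 62.0 and was 16.7-fold lower. Sfrp5 went from 290.0 to 32.8 and was 8.47-fold lower. Sfrp1 (136 and 46.5, 2.80-fold lower) and Sfrp2 (1707 and 630.0, 2.60-fold lower) changed less. The difference between Sfrp4 and Sfrp2 on the log2 scale, -4.06 against -1.38, is far larger than the software error of either, 0.21 and 0.20.

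Of the Dkk genes, the 2 above background on both arrays were lower. Dkk2, an antagonist that binds Lrp5 and Lrp6, had signals of 271 and 21.0 and was 12.4-fold lower. Dkk3, a divergent member of the family, had 2953 and 752 and was 3.76-fold lower. Dkk4 was measured in the draining sample alone, with 1.78 (normal) and 16.3 (draining), which is at least 2.20-fold higher by its bound, while its second probe was not above background on either array (1.54 and 1.64). With normexp the log2 difference of the brighter Dkk4 probe was 0.35, within 2-fold. Dkk1 was not above background on either array.

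Both measured R-spondins were lower. Rspo3 went from 384 to 21.7 and was 17.0-fold lower, and its dimmer probe, at 41.3 in the normal sample, was not above background in the draining one (1.99). Rspo1 had signals of 2065 and 246 and was 8.04-fold lower. Rspo4 was measured in the normal sample alone (14.4 against 1.91), at least 1.67-fold lower by its bound, and Rspo2 on neither. With normexp the log2 difference of Rspo4 was -0.21. Only 12 of the 22152 genes had a difference at or below that of Rspo3, 16 at or below that of Sfrp4 and 39 at or below that of Dkk2, Rspo3, Sfrp4 and Dkk2 included. With the software's background subtraction these 3 genes lay below the lowest of 51 stromal markers, Emcn at -3.54. With normexp they did not, at -2.39, -3.20 and -2.08 against -3.32 for Emcn. The signals of Rspo3 and Dkk2 in the draining sample (21.7 and 21.0) lay near the lowest signal above background (8.27), and the size of these folds moved with the background correction.

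Probes of the same gene gave a second reading for 7 members with several probes above background on both arrays. The 3 Dkk3 probes ran from -2.02 to -1.90 and the 2 Fzd4 probes from -3.16 to -3.05. Those of Wnt5a (-2.98 and -2.62) passed 2-fold, and so did both of Wnt11, whose dimmer probe was at -1.59. Wnt5b had -0.60 and -0.22. Wnt7b and Fzd5 had probes of opposite sign, 0.89 and -0.33 for Wnt7b and 0.26 and -0.61 for Fzd5. The median SD between probes of a gene was 0.27 for these 7 members and 0.27 for all 7599 genes with several probes above background on both arrays. Further probes of Wnt5a (17.7 and 4.35), Fzd8 (12.2 and 1.91) and Wnt10b (9.12 and 4.56) were above background in the normal sample alone. The signs of Wnt7b and Fzd5 differed with the probe, whereas all probes had the same sign for the other 5.

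**Figure D3:**
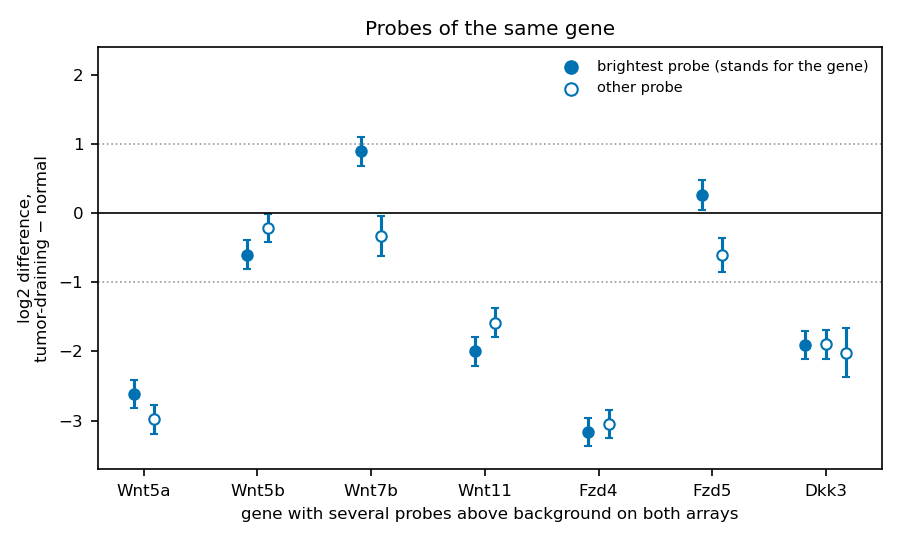
Log2 difference, tumor-draining minus normal, of each probe above background on both arrays, for the 7 genes with several such probes, with bars for the scanner software's error and filled circles for the brightest probe. Probes of Dkk3 (-2.02 to -1.90) and Fzd4 (-3.16 to -3.05) lie close together, while those of Wnt7b and Fzd5 lie on both sides of 0.

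Several Wnt genes lie side by side in the genome, and some such neighbors had unlike values. The probes of Wnt1 and Wnt10b are 21932 bases apart on chromosome 15 in mm9, and had log2 differences of 0.32 and -1.20. Those of Wnt6 and Wnt10a are 19112 bases apart on chromosome 1, on the same strand, and had -2.26 and 0.70, a gap of -2.96. The software errors of these 4 values were 0.21 to 0.26. With normexp Wnt1 and Wnt10b were at 0.23 and -0.33, both within 2-fold, and Wnt6 and Wnt10a at -1.53 and 0.47. Wnt3 and Wnt9b, whose probes are 88467 bases apart on chromosome 11, were each above background on 1 array, Wnt3 on the draining and Wnt9b on the normal one. Their normexp values were 0.28 and -0.17. Of the pair Wnt3a and Wnt9a only Wnt9a was measured.

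Promoter windows of 27 of the 41 genes, 30 windows in all, were found in the RefSeq table of GRCm38.p6 and cover the 250 bases before the start. Rspo3, Sfrp4, Wnt5a, Wnt7b and Wnt10a are among the genes with no window in that table. The windows were rich in CpG, with a median of 22 CpG pairs against 6 over all 32851 windows. The GC box GGGCGG, searched on both strands with overlapping matches counted, was in 21 of the 30 (70.0%) against 32.7% of all windows. The TATA box TATAAA was in 4 (13.3% against 12.4%). The Tcf and Lef motif, searched as CTTTGAT and CTTTGAA, was in 3 (10% against 7.48%), in windows of Wnt5b, Wnt11 and Dkk1. A match is a description of the letters and not a binding site. Windows are printed for Dkk2 and Fzd4, among the lowest members with a window, and Wnt4, the highest, all on the plus strand, 5′ to 3′, with GC and TATA box matches on either strand in capitals.
Dkk2, chr3:132085042-132085291: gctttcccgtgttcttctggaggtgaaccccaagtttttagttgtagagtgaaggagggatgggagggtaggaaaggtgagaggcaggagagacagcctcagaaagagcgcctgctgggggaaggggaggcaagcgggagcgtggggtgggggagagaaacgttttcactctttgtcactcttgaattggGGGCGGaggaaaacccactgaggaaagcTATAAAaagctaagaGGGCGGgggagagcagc
Fzd4, chr7:89404116-89404365: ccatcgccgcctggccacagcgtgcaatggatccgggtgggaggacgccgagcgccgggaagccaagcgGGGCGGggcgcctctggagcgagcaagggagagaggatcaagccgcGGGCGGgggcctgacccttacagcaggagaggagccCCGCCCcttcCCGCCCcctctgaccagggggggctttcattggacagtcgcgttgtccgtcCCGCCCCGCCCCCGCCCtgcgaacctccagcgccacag
Wnt4, chr4:137277385-137277634: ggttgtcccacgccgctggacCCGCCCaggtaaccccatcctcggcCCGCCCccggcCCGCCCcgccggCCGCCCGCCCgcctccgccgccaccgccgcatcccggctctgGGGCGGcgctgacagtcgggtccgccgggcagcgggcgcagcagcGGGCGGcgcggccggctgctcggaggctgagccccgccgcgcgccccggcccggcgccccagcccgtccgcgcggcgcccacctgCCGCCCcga
The Dkk2 window has 2 GC boxes and 1 TATA box with 7 CpG pairs, the Fzd4 window 7 GC boxes and 25 CpG pairs, and the Wnt4 window 8 GC boxes and 44 CpG pairs. GC boxes were thus present in windows of lower genes and of Wnt4.

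The rest of the Wnt pathway was given by 78 genes in 7 lists, of which 69 were above background on both arrays. Of these, 30 were lower, 5 higher and 34 within 2-fold, with a median difference of -0.68. Over all genes above background on both arrays the shares were 15.9% lower and 11.1% higher. Scaled to the spike-ins, the counts of lower genes given for the separate lists below became 2 of 10 co-receptors, 3 of 11 modulators, 3 of 20 intracellular genes and 3 of 12 polarity genes, and 8 of 14 feedback genes were higher. Under that scaling 8.07% of all genes above background on both arrays were lower and 46.8% higher. Of 10 co-receptors and alternative receptors, 7 were lower and 0 higher (median -1.23). Besides Tspan12 (-3.01), these were Ryk (-2.20), Ror1 (393 and 133) and Ror2 (-1.21), which bind ligands such as Wnt5a, Adgra2 (-1.72) and Reck (-1.24), which together recognize Wnt7 ligands in endothelium, and Musk (-1.05, or -0.13 with normexp). The co-receptors Lrp5 (-0.17) and Lrp6 (-0.29) and the receptor Ptk7 (0.21) were within 2-fold.

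The list of other modulators, secreted or at the surface except for Prickle1, had 11 genes measured. Of these, 7 were lower and 0 higher, with a median of -1.75. They were the glypicans Gpc3 (-2.78) and Gpc4 (-1.82), Sostdc1 (-2.47) and Apcdd1 (-2.26), which are Wnt antagonists, Igfbp4 (-1.79), Prickle1 (-1.75), a polarity protein, and Trabd2b (-1.52), a protease that inactivates Wnt ligands. Prickle1, which is also counted in the polarity and calcium list, gave the median of this list. It had a probe at -0.09 and was within 2-fold as a probe mean (-0.85). Dkkl1 (0.89) was highest, and the antagonist Wif1 had signals of 56.5 and 58.3. As means over all probes 6 genes of this list were lower and 1 was higher, with a median of -1.31. Cthrc1 was the higher gene (1.49, against -0.68 by its brightest probe), and Gpc3 was at -1.31. Over probes above background on both arrays 6 were lower and 0 higher, with a median of -1.405. Frzb and Ndp were measured in the normal sample alone, with bounds under 2-fold, and Sost, Draxin and Kremen2 in neither. Of 5 genes of ligand maturation and release, Porcn, which attaches the lipid to Wnt ligands, was lower (-2.08), and the others ran from Wls, the carrier of Wnt ligands, at -0.90 to Notum, which removes the lipid, at 0.35. Wls passed 2-fold downward after loess normalization (-1.05) and as a probe mean (-1.13), which made 2 lower genes of 5.

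The R-spondin receptors and the ligases they act on went both ways, unlike the R-spondins. Lgr4 went from 98.8 to 23.4 (-2.02) and Lgr5 from 156 to 62.5 (-1.25), while the ligase Rnf43 had 104 and 258 (1.36) and Znrf3 164 and 277 (0.82, or 1.05 as a probe mean). Lgr6 was dim, at 10.6 and 23.8 (1.24). With normexp Lgr4 (-0.84), Lgr5 (-0.80), Rnf43 (0.95) and Lgr6 (0.35) were all within 2-fold. The list's median was 0.82 over 5 genes, or -0.22 over those at or above the median signal.

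In the beta-catenin pathway inside the cell, 5 of 20 measured genes were lower, 2 higher and 13 within 2-fold, with a median of -0.24. The nuclear factors split. Tcf7l1 (-2.73) and Tcf7l2 (-2.17) were lower, with Tcf7l2 probes from -2.17 to -0.55. Tcf7 went from 457 to 2057 (2.23) and Lef1 from 2999.8 to 8779 (1.61). T cell markers, a lineage in which Tcf7 and Lef1 are known to be expressed, were higher for 8 of 9 measured genes, with summed signals of 12751 and 54339. Their part in the values of Tcf7 and Lef1 was not tested. Ctnnbip1 (-1.83), Tle1 (-1.26, with probes from -1.29 to -0.13) and Bcl9l (-1.04, with probes from -1.04 to 0.30) were the other lower genes. As probe means Tle1 (-0.90) and Bcl9l (-0.18) were within 2-fold, which left 3 lower genes and a median of 0.052. Ctnnb1, which encodes beta-catenin, had signals of 1918 and 1069 (-0.78), with probes from -1.03 to 0.60.

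Feedback and target genes also went both ways, with 4 of 14 lower and 4 higher (median 0.40). Ccnd1, which encodes cyclin D1, went from 1384 to 229 (-2.54), and Nkd1, a feedback inhibitor, from 731 to 127 (-2.46). Axin2, the feedback scaffold that is the usual readout of beta-catenin signaling, had 52.9 and 96.8 (0.93), within 2-fold, with both its probes at 0.93 to 0.94. Apcdd1 and Lgr5 were the other lower genes. Besides Tcf7, Lef1 and Rnf43, Myc just passed 2-fold (1918 and 3685, or 0.94 after quantile normalization). With normexp, 3 of the 14 were lower and 2 higher. Sp5 was measured in the normal sample alone, at least 2.28-fold lower by its bound, while normexp put its log2 difference at -0.26. In the polarity and calcium list 7 of 12 were lower and 0 higher (median -1.17). Normexp gave 5 lower and a median of -0.69. As means over all probes 4 were lower and 1 higher (median -0.58), and over probes above background on both arrays the median was -0.71. The 7 genes were Prickle2 (-2.41), Daam2 (-2.20), Vangl1 (-1.90), Prickle1 (-1.75), Daam1 (-1.21), Camk2a (-1.18, with another probe at 0.05) and Vangl2 (-1.15). Vangl2 was within 2-fold with normexp (-0.82) and as a probe mean (-0.97). Nfatc1, a factor that lymphocytes also carry, was highest at 0.82, with another probe at 1.67 and a probe mean of 1.24, which passes 2-fold.

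**Figure D4:**
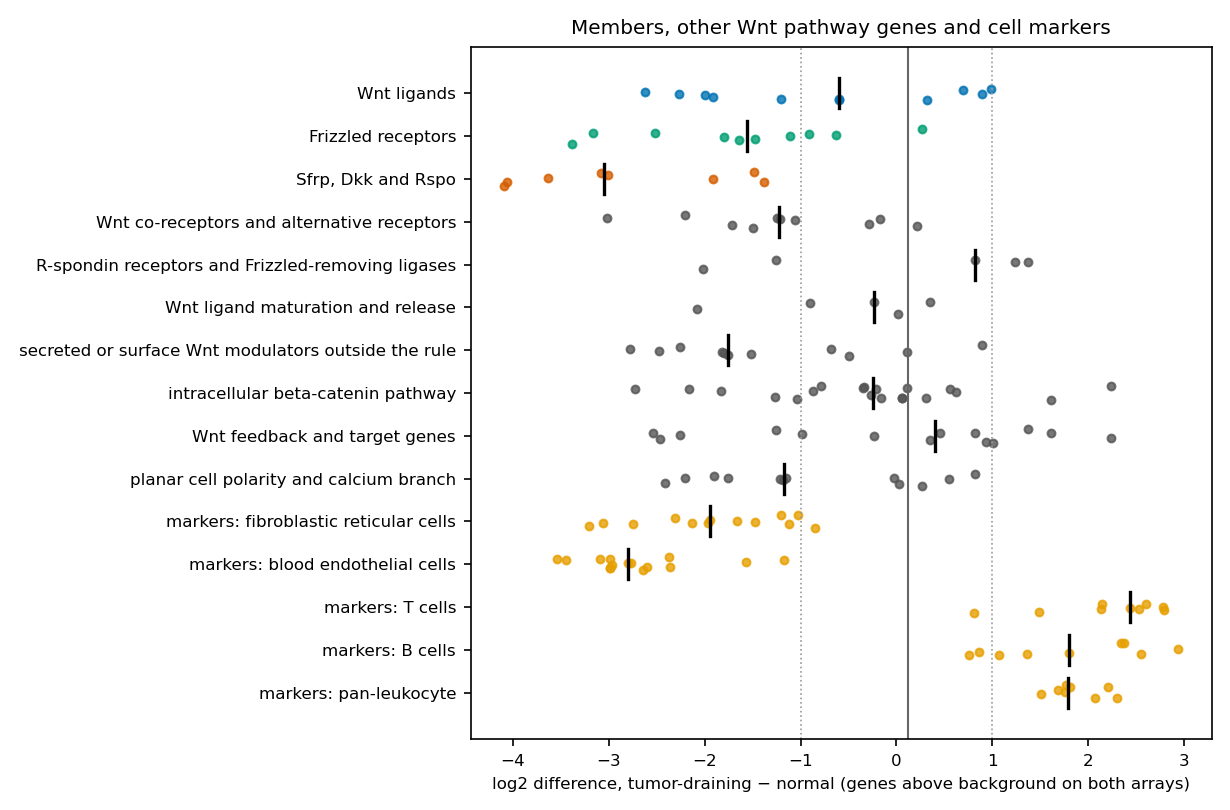
Log2 differences, tumor-draining minus normal, of genes above background on both arrays (1 point per gene, with vertical jitter) for members, other Wnt pathway lists and cell markers; black bars are medians, the gray line is the median of all genes (0.12) and dotted lines are at 2-fold. The 8 secreted modulators measured (median -3.04) run from -4.09 to -1.38, while Wnt feedback genes spread on both sides of 0.

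The values of the cell markers on the same arrays stand beside these results. Fibroblastic reticular markers had a median difference of -1.95 and summed signals of 359966 and 131947, from Ccl19 (-3.20) to Col3a1 (-0.85, with another probe at -2.42), and with Pdpn at -1.96. Blood endothelial markers had a median of -2.80, from Emcn (-3.54) to Pecam1 (-1.17), and summed signals of 93151 and 17803. Lymphatic endothelial markers had a median of -2.33, from Sema3d (-3.17) to Nrp2 (1.10), with 11 of 12 lower and sums of 51981 and 15816. Nrp2 had probes from -2.81 to 1.10, and as means over probes above background on both arrays it was at -1.34 and all 12 were lower. As a mean over all its probes Nrp2 was at 0.41, within 2-fold. Pericyte and smooth muscle markers had a median of -2.27, from Des (-3.36) to Mcam (0.86), with 9 of 12 lower and sums of 84820 and 29694. Des had a second probe at 0.42, and the median of these markers was -1.51 with means over all probes. All markers of these 4 lists were above background on both arrays. Of the 29 members, 11 lay below the fibroblastic reticular median and 7 below the blood endothelial median. Which members did so moved with the background correction. With normexp the fibroblastic reticular median was -1.78. Wnt6 (-1.53), Wnt11 (-1.53) and Fzd8 (-1.09) then lay above it, and Dkk3 (-1.83) lay below it. The blood endothelial median was -2.50 with normexp, the value of Eng. Rspo3 (-2.39), Dkk2 (-2.08) and Sfrp5 (-1.88) then lay above that median.

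B cell markers had a median of 1.80, from Cd79b (0.76) to Bank1 (2.94), with 7 of 9 higher and summed signals of 26852 and 63196. T cell markers had a median of 2.43, from Cd247 (0.81) to Cd28 (2.79). Pan-leukocyte genes had one of 1.79, from Vav1 (1.51) to Ptprc (2.30), with sums of 25346 and 88174. Epithelial and mammary carcinoma markers, given since Wnt7b and Wnt10a are also known from epithelium, had a median of 0.35 and sums of 5709 and 8526, with Krt14 (2.25) highest and Cldn4 (-0.48) lowest, 2 of 11 higher and Elf3 not above background. What part these cell types have in the values of any Wnt, Fzd, Sfrp, Dkk or Rspo gene was not tested.

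The 20 lower genes were called again under most settings. All 20 were lower after quantile and loess normalization, in the authors' deposited table and with means over probes. With normexp, which shrinks the differences of dim probes, 16 of the 20 were still lower, and Wnt10b, Fzd6, Fzd9 and Sfrp1 were within 2-fold. Normexp also brought Wnt6 to -1.53, Fzd10 to -2.70, Sfrp4 to -3.20 and Sfrp5 to -1.88. Scaled to the spike-ins 13 of the 20 were lower, and 5 genes (Wnt1, Wnt4, Wnt7b, Wnt10a and Fzd5) were higher. Under that scaling 8.07% of all genes were lower and 46.8% higher. Those 13, which were lower under each scaling, background correction and probe rule tried, were Wnt2, Wnt5a, Wnt6, Wnt11, Fzd4, Fzd8, Fzd10, Sfrp4, Sfrp5, Dkk2, Dkk3, Rspo1 and Rspo3.

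**Figure D5:**
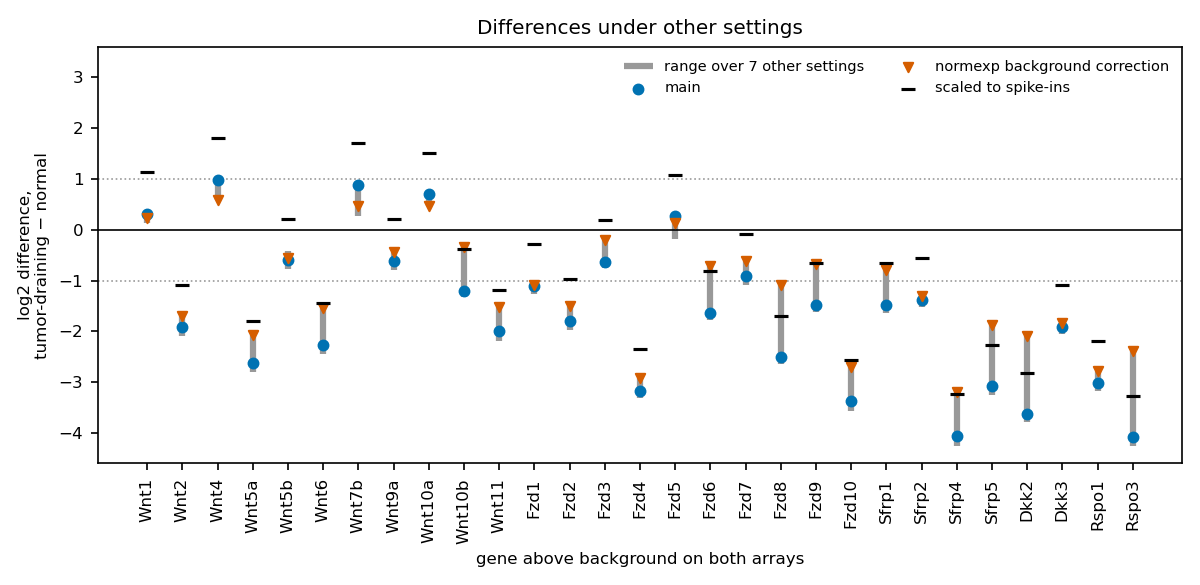
Log2 difference, tumor-draining minus normal, of the 29 genes as reported (blue), with normexp (triangle), when scaled to spike-ins (dash) and as the range over 7 other settings, without spike-ins (gray bar), with dotted lines at 2-fold. Normexp moves the dim Rspo3 from -4.09 to -2.39 and the brighter Rspo1 from -3.01 to -2.78.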

How the data were processed

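Each group was measured on 1 Agilent array in the Cy3 channel, per the labels' protocols. Signals in the deposited files are intensities on a linear scale, from which Feature Extraction 12.0.3.1 had subtracted the background, per the file headers. Version 10.7 and limma appear, with no role, in the submitters' processing notes. The authors also deposited log2 values, whose scaling and centering are unstated (column medians 4.85 and 4.86) and which served as an alternative. They correlated with the log2 signals across probes (r = 0.9999).

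The log2 signal of each of 59305 non-control spots was reduced by its array's 75th percentile, outlier spots were left out, and a gene was its brightest probe. Above background means at least 50% of a probe's spots so marked. Member probes were matched to RefSeq transcripts for 50 of 57, with no conflict. Probes of other genes were named through accessions (32939), symbols (10221) or synonyms (519), and 12869 kept the file's name. The named genes were all members above background, pathway genes past 2-fold, the ends of each pathway and marker list, and Ptprc, Pdpn and Pecam1; further list genes named were chosen after their values were seen. The rule for members reads gene names only, but these gene families, the lists and the alternatives were chosen with earlier results of these data known. The calling steps were tested on simulated data. Alternatives were normexp (offset 50), quantile and loess (span 0.3) normalization, scaling to probes above background or to 6 spike-in probes, the authors' table, probe means and 2 signal filters. No source used here states the spike-in amounts. Python 3.11.15, R 4.3.3 and limma 3.58.1 were used. Sequences of the other member probes are not reported here.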

Additional observations from a re-analysis of the deposited data

How the results depend on the processing

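Direction held for the median over all members and for the Fzd, Sfrp, Dkk and Rspo medians under every alternative run, while the Wnt median turned from -0.60 to 0.22 when scaled to the spike-ins. With normexp background correction the medians were -1.09 for all members, -0.90 for Fzd, -1.59 for Sfrp, -1.96 for Dkk and -2.59 for Rspo. Scaled to the spike-ins they were -0.82, -0.73, -1.46, -1.95 and -2.72, with 13 members at least 2-fold lower and 5 higher, against 8.07% and 46.8% of all genes. Without the background filter the medians were -0.24 for Wnt, -0.89 for Dkk and -2.93 for Rspo, with 2 members at least 2-fold higher. Leaving that filter out lets in genes not above background on both arrays. The 2 members, Wnt3 (1.62) and Dkk4 (3.25), were above background in the draining sample alone. Quantile normalization and the authors' deposited table each gave 1 member at least 2-fold higher, Wnt4. Of the other pathway lists, the R-spondin receptor and ligase median turned to -0.22 among brighter genes, and the ligand maturation median to 0.59 when scaled to the spike-ins. The intracellular beta-catenin median turned to 0.58 when scaled to the spike-ins and to 0.052 with means over probes (0.052 over probes above background on both arrays). The causes were not tested. No paired analysis was possible because each group has 1 array. With signals near 20 on the draining array, as for Rspo3, Dkk2, Fzd8 and Wnt10b, the signal over background limits how well a fold is known. Differences between mice and between sorts are not measured in these data.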
